A study of Homo sapiens with 4 samples.

Results

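The p53 target genes CDKN1A, MDM2, BBC3, BAX, GADD45A, SESN1, TP53I3, FAS and TP53INP1 were examined for peaks of 3 chromatin targets, FLI1, SSRP1 and H3K27ac, in the Ewing sarcoma cell line SK-N-MC. The 9 genes were taken by name as a list of well-known p53 targets, out of 20090 protein-coding genes on chromosomes 1 to 22 and X. They were chosen with earlier results of these data known. Each of the 3 targets had 1 ChIP-seq library, from cells for which the labels name no treatment, and 1 input library was the authors' control, so no value below has a replicate check. Chromatin was cut with micrococcal nuclease and sonicated, and the study concerned inhibition of FACT, the histone chaperone made of SSRP1 and SUPT16H.

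p53 is a transcription factor that is held at a low level by MDM2 and rises after DNA damage and other stress. It binds pairs of short half-sites in or near its target genes, and the products of those genes halt the cell cycle, start apoptosis, adjust metabolism and feed back on p53. FACT is known to meet this pathway: SSRP1 is found in a complex with casein kinase 2 that phosphorylates p53 after ultraviolet light, and compounds that trap FACT on chromatin are known to raise p53 activity. FLI1 is the DNA-binding part of EWS-FLI1, the fusion protein of Ewing sarcoma, which binds ETS sites built on GGAA. H3K27ac, acetylation of lysine 27 of histone H3, marks active promoters and enhancers.

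The deposited lists held 36305 FLI1, 19855 SSRP1 and 37195 H3K27ac intervals on these chromosomes, with median widths of 283, 403 and 653 bp, and gave no peak height. As a check of the cell type, all 7 Ewing sarcoma marker genes (NR0B1, NKX2-2, STEAP1, CCND1, PRKCB, CAV1 and BCL11B) carried all 3 targets within 2.5 kb of a transcription start site (TSS). Of 6 marker genes of other cell types, 0 carried H3K27ac there, 2 carried FLI1 (EPCAM and MYOD1) and 1 carried SSRP1 (EPCAM). Over all protein-coding genes, 17.3% carried all 3 targets, 57.9% H3K27ac, 29.0% FLI1 and 35.8% SSRP1. FLI1 at 2 of 6 was thus near the background.

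SSRP1 lay within 2.5 kb of a TSS at 6 of the 9 p53 target genes, H3K27ac at 7 and FLI1 at 2. The 6 genes with SSRP1 were CDKN1A, MDM2, BBC3, GADD45A, SESN1 and TP53I3. The members' shares of 66.7% for SSRP1 and 77.8% for H3K27ac stood above those of all protein-coding genes, 35.8% and 57.9%, and their share of 22.2% for FLI1 stood below 29.0%. MDM2 was the member with all 3 targets, BAX had FLI1 with H3K27ac, and FAS and TP53INP1 had H3K27ac alone. The members had 2 to 6 annotated TSSs each, and among the 11918 genes with that many TSSs the shares were 39.4% for SSRP1, 63.7% for H3K27ac and 31.7% for FLI1. No interval or test belongs to these counts, which rest on 9 genes picked by name in 1 library per target. Because earlier results of these data were known at the choice, the shares are a description only. The part of that choice in them was not tested.

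The annotated gene spans include the TSSs, so counts over them in part repeat those at the promoters. A peak met the annotated span at 6 of the 9 genes for SSRP1, 8 for H3K27ac and 3 for FLI1, against 40.4%, 61.4% and 44.4% of all genes. The gene added for H3K27ac was BBC3 and the gene added for FLI1 was TP53INP1. Outside the TSS windows, SSRP1 met the span of 1 member, BBC3, H3K27ac the spans of 2, BBC3 and BAX, and FLI1 the span of 1, TP53INP1. Among all genes the same rule found SSRP1 at 18.7%, H3K27ac at 22.3% and FLI1 at 32.2%, so H3K27ac at 2 of 9 was at the background.

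**Figure D1:**
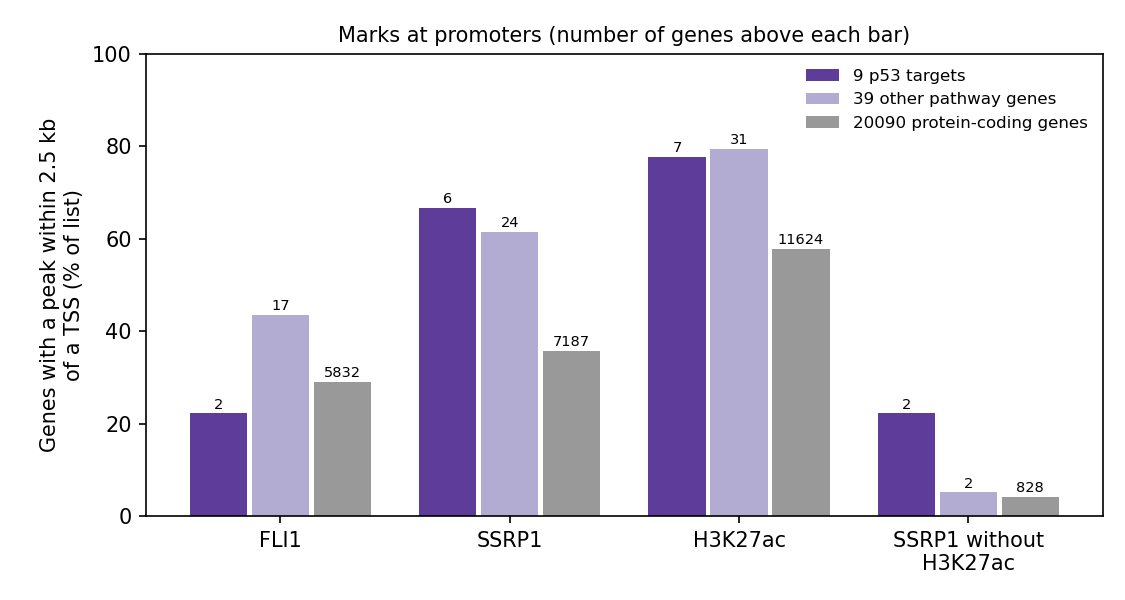
Percentage of genes with a peak within 2.5 kb of a TSS (vertical axis) for the 9 p53 targets, 39 other genes of the p53 pathway and all 20090 protein-coding genes, with the number of genes above each bar. SSRP1 was found at 6 of the 9 p53 targets (66.7%) and at a similar share of the other pathway genes, 24 of 39 (61.5%). SSRP1 without H3K27ac was found at 2 of 9 and at 2 of 39, and the 2 of 9 fell to 1 with a window of 5 kb.

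CDKN1A and BBC3 carried SSRP1 at a promoter with neither H3K27ac nor FLI1. SSRP1 without H3K27ac in the window was found at 4.12% of all protein-coding genes, or at 3.99% of those with 2 to 6 TSSs. Among promoters with SSRP1, it was found at 2 of 6 members, beside 828 of 7187 genes in all (11.5%, 95% exact Clopper-Pearson interval 10.8 to 12.3, counting error only). That interval takes genes as independent, although some share a peak, and the contrast with 2 of 6 was not tested. SSRP1 as the only one of the 3 targets was found at 2.84% of all genes.

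CDKN1A encodes p21, the inhibitor of cyclin-dependent kinases through which p53 halts the cell cycle, and lies on the plus strand of chromosome 6 (36644237 to 36655114). It carried 3 SSRP1 peaks, at 36646313 to 36647036 (724 bp), 36647349 to 36647631 (283 bp) and 36648076 to 36648456 (381 bp). The first covered the main TSS at 36646491, running from -178 to 545 bp around it, and 78.8% of the SSRP1 peaks at promoters were narrower. The other 2 lay in the first kilobases downstream, from 858 to 1140 bp and from 1585 to 1965 bp, over introns and, for the last, 206 bp of a noncoding or untranslated exon. The nearest H3K27ac peak was 321 bp wide and lay 56.2 kb from a TSS, downstream, and the nearest FLI1 peak lay 14.5 kb downstream. SSRP1 at a promoter with no H3K27ac within 50 kb, a distance chosen after the data were seen, was found at 1.61% of all genes. Among the 828 genes with SSRP1 and no H3K27ac in the window, the nearest H3K27ac was nearer than at CDKN1A in 64.6%, with quartiles of 13.5 and 85.6 kb. The 100 kb around the main TSS held 0 H3K27ac, 4 SSRP1 and 4 FLI1 peaks. On the larger scale of 10 Mb, there were 28.4 H3K27ac peaks per Mb, against 12.3 over all chromosomes, and SSRP1 density was 19.5 against 6.54. DINOL, a divergent noncoding gene on the minus strand, starts at 36646336, inside the first SSRP1 peak, so that peak cannot be assigned to one of the 2 genes.

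The 2 stretches of CDKN1A below show what lay under SSRP1 there: the bases of the first peak before the first exon, up to -5, and the whole second peak, in an intron. They are hg19 plus-strand sequence, 5′ to 3′, with each GC box (GGGCGG or its reverse complement CCGCCC) in capitals. A run of capitals longer than 6 holds overlapping boxes.
CDKN1A, chr6:36646313-36646486: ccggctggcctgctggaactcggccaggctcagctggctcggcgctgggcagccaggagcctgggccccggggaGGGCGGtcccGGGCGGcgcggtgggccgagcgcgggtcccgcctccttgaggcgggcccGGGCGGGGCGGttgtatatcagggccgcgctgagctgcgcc
CDKN1A, chr6:36647349-36647631: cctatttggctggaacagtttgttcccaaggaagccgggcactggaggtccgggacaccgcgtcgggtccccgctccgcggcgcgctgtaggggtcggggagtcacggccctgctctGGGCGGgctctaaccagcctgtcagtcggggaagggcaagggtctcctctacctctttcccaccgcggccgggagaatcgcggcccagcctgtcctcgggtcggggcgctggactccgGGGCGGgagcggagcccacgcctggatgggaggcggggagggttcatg
The upstream stretch held 4 GC boxes in 174 bases and the intronic one 2 in 283. A GC box occurred in 54.3% of windows of 174 bases before the main TSS of all genes and in 73.1% of SSRP1 peaks at promoters. GC content was 70.6%, 70.3% and 68.0% in the 3 peaks.

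BBC3 encodes PUMA, a BH3-only protein that triggers apoptosis, and lies on the minus strand of chromosome 19 (47724079 to 47736023). It carried the most SSRP1 peaks of the 9 genes, 4 over the gene, of which 2 were in the promoter window. Read in the direction of transcription from the main TSS, they lay at 451 to 858, 1232 to 1513, 3390 to 3849 and 4320 to 4952 bp, with widths of 408, 282, 460 and 633 bp. All 4 began past the TSS, and 282 bp was the lowest width in the whole SSRP1 list. The last of them lay wholly inside the gene's H3K27ac peak, 940 bp at 47729201 to 47730140, and the other 3 met none. That H3K27ac peak began 4316 bp from the nearest TSS, outside the window, so BBC3 lost its standing as unacetylated when the window was 5 kb. The micro-RNA gene MIR3191 lies between the last 2 SSRP1 peaks (47730199 to 47730278), on the other strand. The nearest FLI1 peak lay 11.4 kb upstream. The 100 kb around the main TSS held 7 H3K27ac, 9 SSRP1 and 3 FLI1 peaks. In the 10 Mb around BBC3 there were 43.7 H3K27ac and 34.0 SSRP1 peaks per Mb, against 12.3 and 6.54 over all chromosomes. Chromosome 19 as a whole was dense too, with 34.3 and 26.7 per Mb.

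The stretch of BBC3 nearest to the TSS, 300 intronic bases under the first SSRP1 peak, is shown because it held the most GC boxes of the stretches read. It is given on the gene's own strand, with GC boxes in capitals.
BBC3, chr19:47733706-47734005, minus strand: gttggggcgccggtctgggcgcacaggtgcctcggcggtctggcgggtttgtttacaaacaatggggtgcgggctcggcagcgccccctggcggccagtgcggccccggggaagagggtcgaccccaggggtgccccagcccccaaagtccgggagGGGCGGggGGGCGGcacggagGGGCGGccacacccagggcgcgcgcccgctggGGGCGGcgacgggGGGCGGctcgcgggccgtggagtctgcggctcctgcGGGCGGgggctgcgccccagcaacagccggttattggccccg
It held 6 boxes, and the whole peak of 408 bp held 8, with a GC content of 78.7%. The second BBC3 peak was different in base composition: it held 0 boxes, its GC content was 53.5% and its CpG ratio (observed over expected) was 0.342, against 0.857 in the first.

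**Figure D2:**
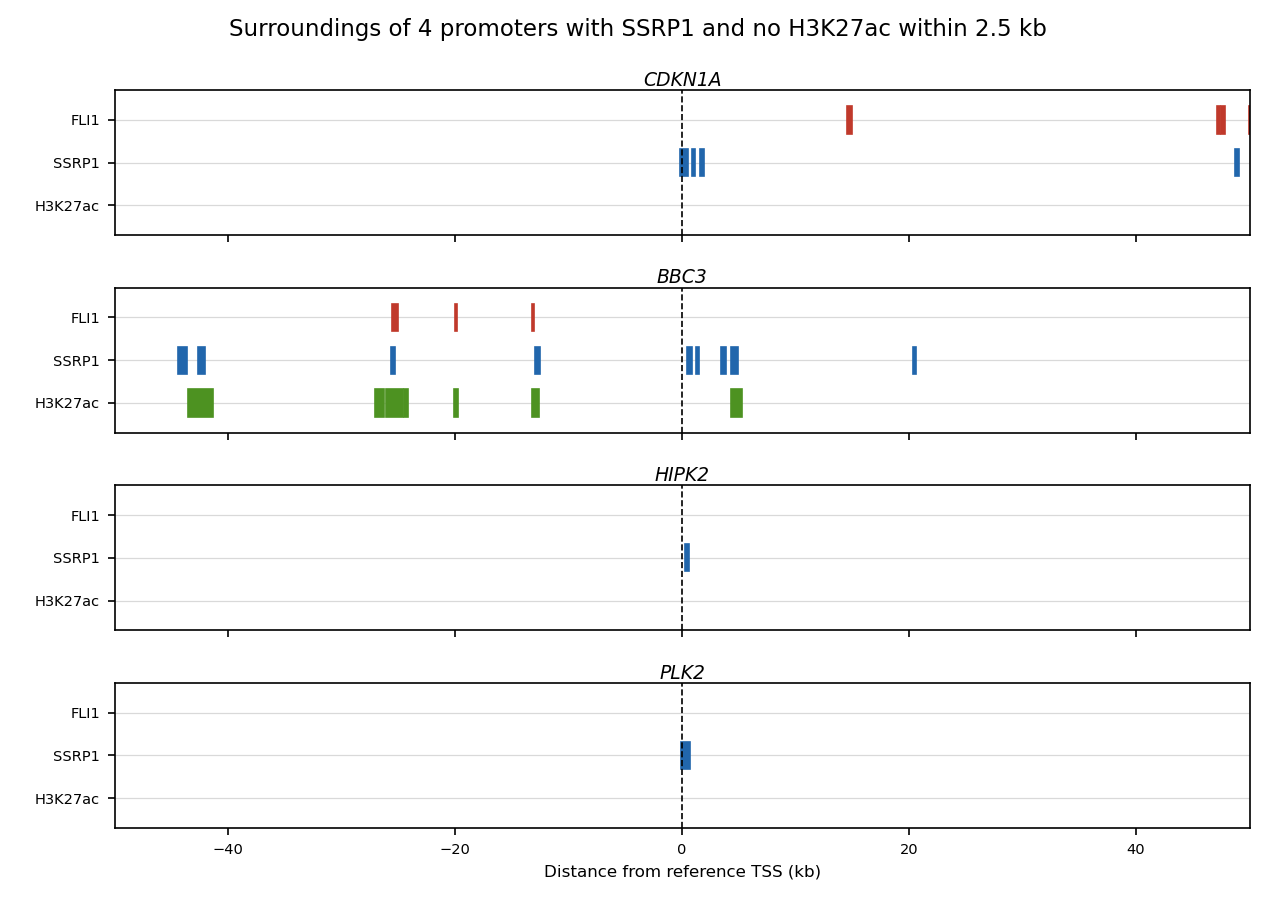
Peaks of FLI1, SSRP1 and H3K27ac within 50 kb of the reference TSS (dashed line; horizontal axis in kb, transcription to the right) of the 4 genes of the p53 pathway with SSRP1 and no H3K27ac in the promoter window. CDKN1A shows 3 SSRP1 peaks at its start and an empty H3K27ac lane. At BBC3 acetylation begins 4316 bp downstream, and further H3K27ac peaks lie upstream, the nearest of them from -13197 to -12571 bp.

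GADD45A, a stress-induced gene whose product takes part in growth arrest and DNA repair, was acetylated and carried 2 SSRP1 peaks. It lies on the plus strand of chromosome 1 (68150884 to 68154017). The SSRP1 peaks, of 311 bp at 68151010 to 68151320 and 541 bp at 68151447 to 68151987, lay downstream of the main TSS, from 126 to 436 and from 563 to 1103 bp. The first also covered an annotated TSS, at 68151088. H3K27ac covered 902 bp, from -39 to 862 bp, so it held the whole first SSRP1 peak and 300 bp of the second, which ran on past it. The nearest FLI1 peak lay 35.2 kb upstream.

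MDM2 encodes the ubiquitin ligase that marks p53 for destruction and is itself a p53 target, the best known negative feedback of the pathway. It was the member with all 3 targets, on the plus strand of chromosome 12 (69201957 to 69239324). FLI1 lay upstream and SSRP1 downstream across the main TSS: the FLI1 peak of 400 bp (69201665 to 69202064) ran from -292 to 107 bp and the SSRP1 peak of 607 bp (69201937 to 69202543) from -20 to 586 bp. They shared 128 bp, and both lay wholly inside an H3K27ac peak of 1967 bp (69201109 to 69203075). MDM2 has a second promoter in its first intron, the one at which p53 acts. The 3 TSSs there, at 69202782, 69202804 and 69202992, lay inside the H3K27ac peak, 239 to 449 bp past the end of the SSRP1 peak and 718 to 928 bp past FLI1. SSRP1 and H3K27ac therefore both met the first promoter, and of the 2 only H3K27ac covered the second. In the 100 kb around the main TSS these 3 peaks were the only ones of the 3 lists.

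BAX, which forms the pores of the outer mitochondrial membrane in apoptosis, carried FLI1 and H3K27ac without SSRP1. It lies on the plus strand of chromosome 19 (49458072 to 49465055). The FLI1 peak of 265 bp (49457925 to 49458189) covered both TSSs and was narrower than the median of 330 bp for FLI1 peaks at promoters. Acetylation was broken into 3 peaks of 344, 940 and 325 bp in the window, and a further one of 750 bp lay over the end of the gene. The FLI1 peak shared 133 bp with the middle one. The nearest SSRP1 peak, 3603 bp wide (49467949 to 49471551), lay past the end of BAX, 9763 bp from its nearest TSS.

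The FLI1 peaks at MDM2 and BAX are shown up to the first exon, because FLI1 at p53 targets rested on these 2 peaks. GGAA and its reverse complement TTCC, the core of an ETS site, are in capitals, and both stretches are plus-strand hg19.
MDM2, chr12:69201665-69201956: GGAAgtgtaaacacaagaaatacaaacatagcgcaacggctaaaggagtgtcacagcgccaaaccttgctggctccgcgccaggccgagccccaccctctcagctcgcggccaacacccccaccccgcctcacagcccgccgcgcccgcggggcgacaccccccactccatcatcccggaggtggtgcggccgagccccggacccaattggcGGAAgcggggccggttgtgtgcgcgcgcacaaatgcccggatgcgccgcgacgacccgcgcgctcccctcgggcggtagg
BAX, chr19:49457925-49458071: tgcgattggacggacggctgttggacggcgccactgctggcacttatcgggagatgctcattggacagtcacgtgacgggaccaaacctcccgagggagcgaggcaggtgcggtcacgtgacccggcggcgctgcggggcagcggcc
The MDM2 stretch held 2 such cores, and the whole peak 3. The BAX stretch has no capitals because it held none, and the rest of that peak held none either. GGAA in either direction occurred in 93.9% of the FLI1 peaks at promoters. Over all genes, it also occurred in 94.7% of windows of 292 bases before the main TSS and in 77.7% of windows of 147 bases. The longer ETS core CCGGAA (or TTCCGG) occurred in 29.9% of the FLI1 peaks at promoters, and in neither the MDM2 nor the BAX peak. It occurred in 20.8% and 14.9% of the same windows.

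SESN1 and TP53I3, both with roles in oxidative stress, each had 1 SSRP1 peak over the main TSS inside an H3K27ac peak, and no FLI1. SESN1 encodes sestrin 1, which limits mTORC1 signalling, and lies on the minus strand of chromosome 6 (109305512 to 109416049). Its SSRP1 peak of 394 bp (109415715 to 109416108) lay inside 1701 bp of H3K27ac. CEP57L1 starts on the other strand, its TSS 264 bp from that of SESN1, so the acetylation is shared by both genes. The SSRP1 peak ended before the TSS of CEP57L1. SESN1 also has an internal promoter with TSSs at 109330191 and 109330758: it carried a second H3K27ac peak of 993 bp (109330283 to 109331275) and no SSRP1, of which the nearest peak lay 84957 bp away. The nearest FLI1 peak to any SESN1 TSS lay 197 kb away.

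TP53I3 encodes a quinone oxidoreductase and lies on the minus strand of chromosome 2 (24300303 to 24308731). SSRP1 covered 652 bp (24307096 to 24307747), from -43 to 608 bp around the main TSS, inside 1092 bp of H3K27ac (24306924 to 24308015). The SSRP1 peak covered 2 of the 3 TSSs and lay wholly over exons. It held 3 CCGGAA cores without FLI1, the nearest peak of which lay 7.69 kb downstream, and 25.6% of SSRP1 peaks at promoters held at least 1 such core.

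FAS and TP53INP1 were acetylated and carried neither SSRP1 nor FLI1 at the promoter. FAS encodes a death receptor and lies on the plus strand of chromosome 10 (90750414 to 90775542). Its H3K27ac peak of 388 bp (90750795 to 90751182) was narrow, with 12.1% of H3K27ac peaks at promoters narrower, and it began 381 bp past the main TSS. ACTA2 starts on the other strand, its TSS 44 bp from the nearest TSS of FAS, so the peak cannot be assigned to either. The nearest SSRP1 peak lay 653 kb away and the nearest FLI1 peak 11.2 kb upstream. Peak density in the 10 Mb around FAS was 0.6 per Mb for FLI1, 1.6 for SSRP1 and 4.9 for H3K27ac, the lowest of the 9 for each list. Chromosome 10 as a whole was sparse too, with 1.79 per Mb for FLI1, 1.57 for SSRP1 and 8.26 for H3K27ac, against 6.54 for SSRP1 and 12.3 for H3K27ac over all chromosomes. The part of this sparsity in the missing SSRP1 and FLI1 was not tested.

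**Figure D3:**
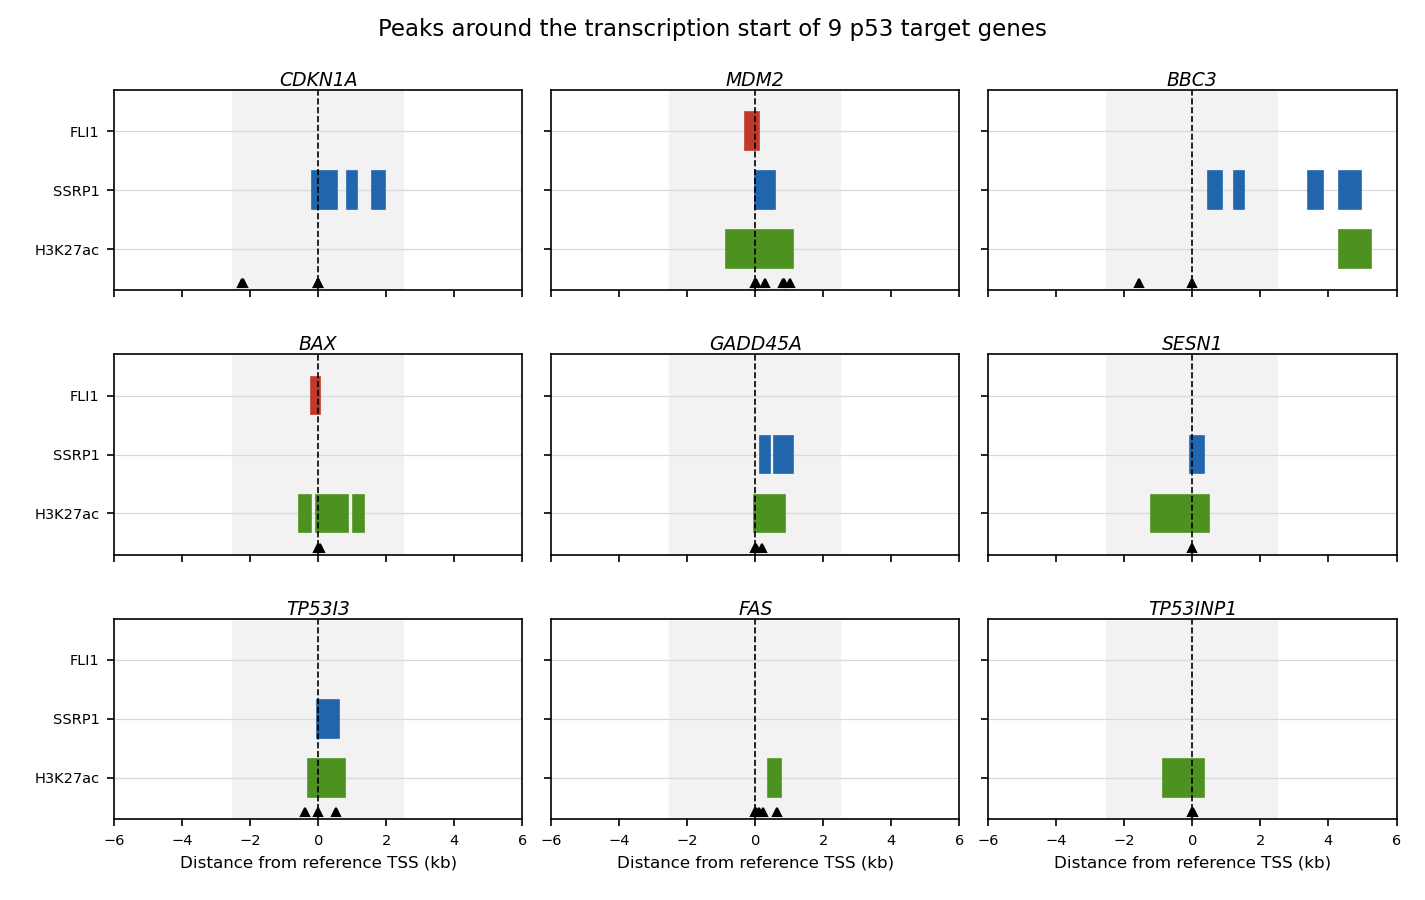
Peaks of each list within 6 kb of the reference TSS of the 9 p53 target genes (horizontal axis in kb, transcription to the right; dashed line, reference TSS; triangles, all annotated TSSs in range; grey, 2.5 kb on each side of the reference TSS). SSRP1 lies at or just downstream of the start at 6 genes, with H3K27ac at 4 of these in the grey window, and FLI1 at MDM2 and BAX.

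Across the 6 genes, SSRP1 lay over the TSS or downstream of it. Of the 10 SSRP1 peaks in the promoter windows, all ended downstream of the main TSS, and the 4 that reached upstream of it did so by no more than -178 bp. Counting each gene and peak in its window as a pair, 70.4% of 10434 pairs over all genes ended downstream of the main TSS and 29.6% lay wholly upstream. Of 29 such pairs at the other pathway genes, 13 lay wholly upstream. These differences were not tested. The 10 peaks were 282 to 724 bp wide, against quartiles of 339 and 663 bp and a median of 455 bp over the 9127 SSRP1 peaks at promoters.

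**Figure D4:**
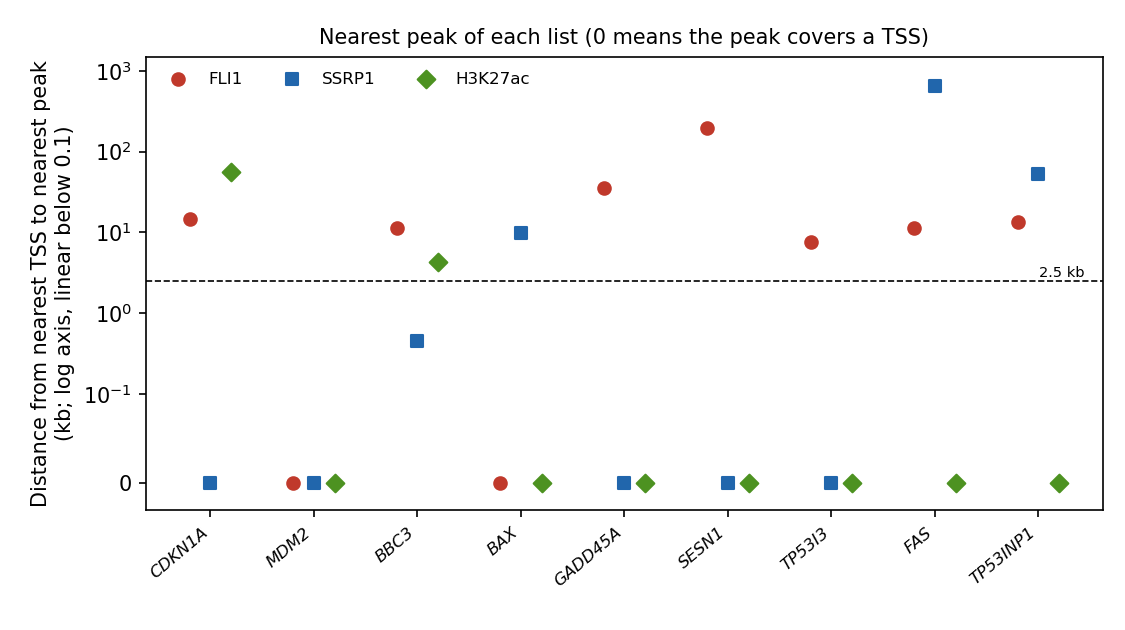
Distance in kb from the nearest TSS to the nearest peak of each list (log axis, linear below 0.1 kb) for the 9 p53 target genes. H3K27ac covers a TSS at 7 of the 9, and the farthest values are SSRP1 at FAS, 653 kb, and FLI1 at SESN1, 197 kb.

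Sites that matched the p53 consensus as searched here lay outside the SSRP1 and FLI1 peaks. The p53 consensus was searched from 5 kb before to 5 kb after each gene as 2 adjoining half-sites of 10 bases, with both 4-base cores intact and up to 3 mismatches among the other bases. There were 22 such sites at 8 of the 9 genes, and BAX had none in these letters. Those at MDM2 started at -4845, 11456 and 32470 bp from its main TSS, none of them at its second promoter. The search cannot find a site with an altered core or a spacer between the half-sites, so such sites were not examined. SSRP1 lay over 0 of the 22, FLI1 over 0 and H3K27ac over 1. Over all protein-coding genes, SSRP1 covered 0.244% of 49988 such sites, FLI1 0.744% and H3K27ac 1.17%, so counts of 0 and 1 in 22 are near the background and say nothing particular about these genes.

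Of the 22 sites, 6 are shown: those of CDKN1A and GADD45A because they are the textbook p53 response elements of the genes, and at BBC3, FAS, SESN1 and TP53I3 the site nearest to an SSRP1 or H3K27ac peak. Each is read on the strand of its gene with the 2 cores in capitals.
CDKN1A site, chr6:36644226-36644245: gaaCATGtcccaaCATGttg
GADD45A site, chr1:68152458-68152477: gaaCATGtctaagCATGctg
BBC3 site, chr19:47734577-47734596: ctgCAAGtcctgaCTTGtcc
FAS site, chr10:90751066-90751085: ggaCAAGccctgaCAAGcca
SESN1 site, chr6:109330221-109330240: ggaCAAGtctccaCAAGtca
TP53I3 site, chr2:24308035-24308054: cagCTTGcccaccCATGctc
The CDKN1A site had 2 mismatches and lay over the most upstream TSS of the gene, starting at -2265 bp from the main TSS, 2068 bp from the nearest SSRP1 peak. The GADD45A site had 1 mismatch, lay in an intron at 1574 bp and was 471 bp from SSRP1 and 712 bp from H3K27ac. The BBC3 site, at -140 bp with 3 mismatches, lay 572 bp from SSRP1. The FAS site, with 2 mismatches, was the one under a peak, the H3K27ac peak shared with ACTA2. The SESN1 site lay 43 bp from the H3K27ac peak of the internal promoter. The TP53I3 site, at -350 bp with 3 mismatches, lay 20 bp from H3K27ac and 288 bp from SSRP1.

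Base composition did not set CDKN1A and BBC3 apart from the acetylated members. In the 1 kb around the main TSS, GC content was 64.4% at CDKN1A and 73.5% at BBC3, and 61.5% to 75.7% at the other 7. Over all genes, the median was 65.5% where SSRP1 was the only one of the 3 targets, 66.3% with SSRP1 and H3K27ac, 61.2% with H3K27ac alone and 54.3% with none. The CpG ratio was 0.826 at CDKN1A and 0.842 at BBC3, and 0.489 to 0.903 at the other 7. Over all genes, its median was 0.716 where SSRP1 was alone and 0.822 with SSRP1 and H3K27ac.

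Of 39 other protein-coding genes of the p53 pathway, 24 carried SSRP1 at a promoter, 31 H3K27ac and 17 FLI1. Read against the same shares of all genes as above, SSRP1 at 61.5% and H3K27ac at 79.5% stood above the background here too. FLI1 at 43.6% was above it as well, where at the 9 targets it was below. None of these differences was tested. All 3 targets were found at 13 of them, beside 17.3% of all genes, and these included PMAIP1 (the BH3-only protein NOXA), BID, APAF1 and PIDD1 of the death machinery, CCNG1 and SFN of cell cycle arrest, TIGAR, DDB2, RRM2B and FDXR of metabolism and repair, and CDKN2A and PHLDA3. At SFN, a short gene, no target covered the TSS: H3K27ac began 1013 bp from it. The SSRP1 and FLI1 peaks there lay past the end of the gene, 1457 and 2016 bp from the TSS. After CDKN2A (1446 bp), PMAIP1 had the widest SSRP1 peak among these 39 genes, 1228 bp over its TSS, with a FLI1 peak of 704 bp. The 6 genes with none, beside 34.7% of all genes, were TP53AIP1, TNFRSF10A, GLS2, EDA2R, SPATA18 and TRIM22.

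SSRP1 without H3K27ac occurred at 2 of these 39 genes, HIPK2 and PLK2, and neither had FLI1 in the window. That count is near the 4.12% of all genes, and it was 2 of the 24 with SSRP1, beside 11.5% of all genes with SSRP1. HIPK2, a kinase that phosphorylates p53, had a single SSRP1 peak in the window, at the lowest width of the list, 282 bp, 75 bp from a TSS, and the nearest H3K27ac lay 204 kb away. PLK2, a p53-induced polo-like kinase, had an SSRP1 peak of 784 bp over its TSS, from -129 to 654 bp, with the nearest H3K27ac 426 kb away. In both cases the 100 kb around the main TSS held no other peak of any list. Farther inside HIPK2, a long gene, lay another SSRP1 peak of 293 bp, 115 kb from the nearest TSS, and 3 FLI1 peaks of 227 to 237 bp, the nearest of them 4.5 kb from an internal TSS.

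Of the regulators among these 39 genes, 4 were picked for mention after their values were seen. MDM4, the relative of MDM2 that inhibits p53, and the kinase gene ATM had FLI1 with H3K27ac and no SSRP1. USP7, a deubiquitinase of MDM2, and CHEK2, a checkpoint kinase, had SSRP1 with H3K27ac.

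**Figure D5:**
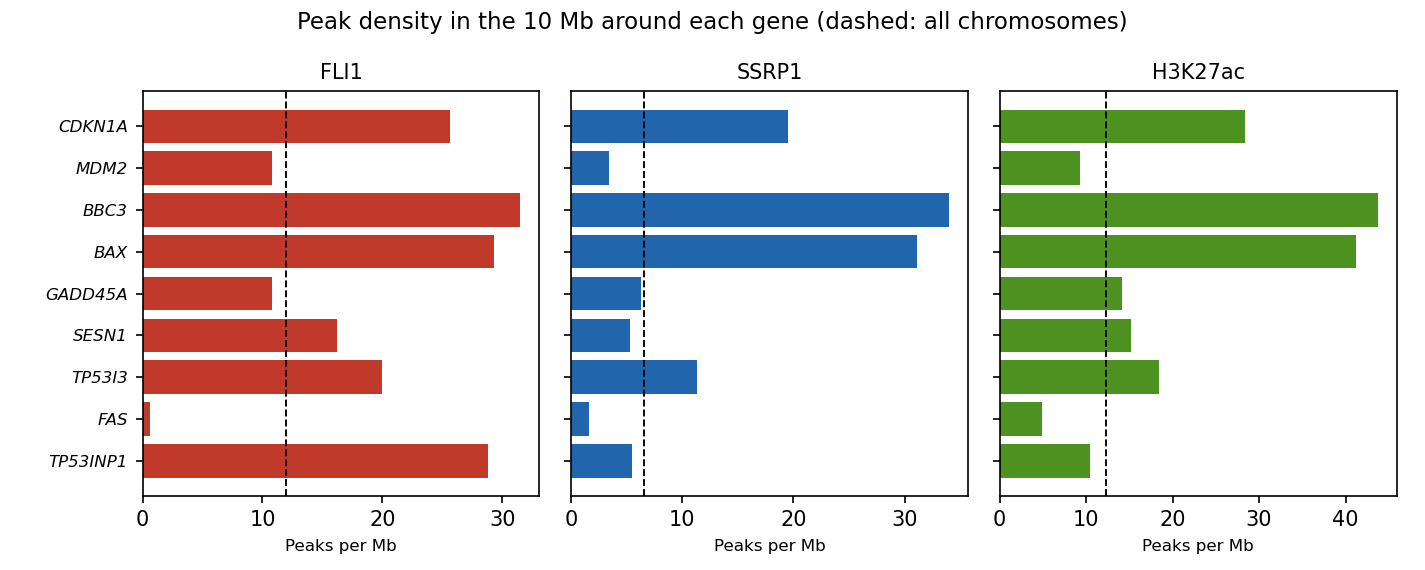
Peaks per Mb (horizontal axes) in the 10 Mb around each of the 9 p53 target genes, for each list, with the value over all chromosomes as a dashed line. FLI1 density spans 0.6 at FAS to 31.5 at BBC3, and SSRP1 density, 1.6 at FAS, is also highest at BBC3.

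TP53INP1, a nuclear protein induced by stress that promotes the apoptotic activity of p53, lies on the minus strand of chromosome 8 (95938200 to 95961606). Its H3K27ac peak of 1221 bp (95961260 to 95962480) covered both TSSs, and an internal TSS of NDUFAF6, on the other strand, lay 953 bp from them. A FLI1 peak of 359 bp (95945755 to 95946113) lay in an intron, 15481 bp from the nearest TSS, and met neither SSRP1 nor H3K27ac. It held 0 GGAA in either direction, which 83.8% of all FLI1 peaks held. FLI1 peaks were dense around the gene, 28.8 per Mb in 10 Mb, but no denser than over the whole chromosome, 31.4 per Mb. The 100 kb around the main TSS held 8 FLI1 peaks, while SSRP1 had 0 there and its nearest peak lay 53.2 kb away. Whether that density has a part in the intronic peak was not tested.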

How the data were processed

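FLI1, SSRP1 and H3K27ac were immunoprecipitated from chromatin of SK-N-MC cells and sequenced, with 1 library per target and 1 input library, grouped by sample title. Per the labels and the submitters' processing notes, Bowtie2 placed the reads on hg19, and MACS2 2.2.7.1 called the deposited peaks against the input at a q-value of 0.05. Handling of duplicate and multiply mapped reads is not given in these sources. The deposited files give the chromosome, start, end and name of each peak, with no score, height or depth, so precision per peak is unknown. Intervals repeated under several names were counted once, and 234 FLI1, 100 SSRP1 and 76 H3K27ac intervals off chromosomes 1 to 22 and X were left out. No interval ran past the end of a GRCh37 chromosome, and coordinates are 1-based.

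GENCODE release 44 on GRCh37 gave the genes and the TSSs of basic transcripts, and a gene carried a target when a peak met 2.5 kb on either side of any TSS. The main or reference TSS is that of the canonical transcript, or the outermost one for FAS. A nearest peak is measured from the nearest TSS of the gene. Motifs were matched as letters on both strands. The members and lists were chosen with earlier results of these data known, and no test was run since each target has 1 library. All 9 members were named. Of the other pathway genes, 40 were listed and TP53TG1 was dropped as not protein-coding, and those with all 3 targets (up to 12), with none, or with SSRP1 and no H3K27ac were named. A further pathway gene and a marker gene are not reported here. The overlap and site functions were tested on simulated data. Tools were samtools 1.23.1, pysam 0.24.0, scipy 1.17.1 and numpy 2.4.6 under Python 3.11.15. Alternatives were TSS windows of 1 and 5 kb, the outermost TSS, at least 20% of the peak in the window, only peaks at or above the median width, other rules for acetylation and for sites.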

Additional observations from a re-analysis of the deposited data

How the results depend on the processing

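Of 54 alternatives to the 12 counts, 46 stayed within 1.5 times the main count and 8 did not. SSRP1 without H3K27ac fell to 1 of 9 genes with a window of 5 kb (4.56% of all genes), with H3K27ac sought within 10 kb (3.36%) or, as chosen after the data were seen, within 50 kb (1.61%), since BBC3 then counted as acetylated and CDKN1A did not. With wider peaks only, FLI1 fell from 2 to 1 of 9 members, and over all genes from 29.0% to 20.1%. SSRP1 fell from 24 to 14 of 39 other pathway genes, and over all genes from 35.8% to 24.4%. This rule keeps fewer peaks, and its part in these falls was not tested. Without the TSS windows, FLI1 and SSRP1 each met the span of 1 member (32.2% and 18.7% of all genes) and H3K27ac of 2 (22.3%). No paired analysis was possible because each target has 1 library. Peak height was not analysed, so an unlisted peak is one not called at this depth, not one shown to be absent.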
